A study of Mus musculus with 12 samples.

Results

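Adipokines are signalling proteins that fat tissue secretes. The genes of 9 of them are described here: Lep (leptin), Adipoq (adiponectin), Retn (resistin), Cfd (complement factor D, or adipsin), Rbp4 (a retinol carrier), Agt (angiotensinogen), Nampt (visfatin), Rarres2 (chemerin) and Apln (apelin). They were found by symbol in the deposited gene count tables and make up 9 of the 32772 genes listed there. All 9 were measured in mice on chow and on a high-fat diet, and 7 of them also in mice on the high-fat diet given injections. Retn and Cfd were not analysed in the injected groups.

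Fat cells store energy as triglyceride and also act as endocrine cells. Leptin reports the size of the fat stores to the hypothalamus, and its blood level rises with fat mass, whereas blood adiponectin, a hormone that raises insulin sensitivity, is low in obesity. Resistin and adipsin are made chiefly by adipocytes in mice, retinol binding protein and angiotensinogen are also major products of the liver, and visfatin, chemerin and apelin come from several cell types of the tissue.

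The 12 RNA sequencing libraries, 3 in each of 4 groups, were made from mice of the inbred C57BL/6N strain. The diets began at 6 weeks of age and lasted 18 weeks. Chow mice ate regular chow and HFD mice a high-fat diet, with no injection stated for either. HFD Vehicle and HFD PCN mice are labelled as fed the same high-fat diet and received 1 intraperitoneal injection a day for 4 days. The HFD PCN mice received pregnenolone-16alpha-carbonitrile (PCN) at 50 mg/kg, and the HFD Vehicle mice received 30% DMSO in corn oil. PCN is a ligand of the pregnane X receptor, a nuclear receptor (gene Nr1i2) known for switching on drug metabolism in the liver. The labels do not state that each library is a separate animal, so the p-values measure the spread between these libraries only.

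The libraries held 11090117 to 27408092 counts. The series title gives gonadal fat as the tissue, but the source label says duodenum. Levels below are given as CPM, the reads of a gene as a share of its library after TMM scaling. The summed level of 21 adipocyte genes lay between 13042 and 38335 CPM in all 12 libraries, and that of 6 intestinal epithelial genes between 10.6 and 52.8 CPM. Of these 6, Lgals4 was detected in every library, at 8.94 to 9.33 CPM in HFD and 29.6 to 47.3 CPM in Chow. Cdx1, an intestinal regulator, was at 0 in the Chow and HFD Vehicle libraries, but not in all HFD or all HFD PCN libraries. A list of 8 hepatocyte genes summed to 2.91 to 17.3 CPM, with none at 0 throughout a group. Nr1i2 was at no more than 0.199 CPM in any library, and Cyp3a11, a liver target of its protein, at no more than 0.480 CPM. One injected library, HFD Vehicle 50, was unlike the others of its group. Its level of Adgre1, a macrophage surface gene, was 65.8 CPM, against 914 and 911 CPM in HFD Vehicle 23 and 55 and 26.8 to 74.6 CPM in Chow. Plin1, the lipid droplet coat gene of adipocytes, was at 1289 CPM there, against 484 and 378 CPM in the others and 1109 to 1434 CPM in Chow. Both levels lay within the Chow range, so for these genes this library went against its label. The match was partial: the 21 adipocyte genes summed to at most 26277.5 CPM in any HFD Vehicle library, against at least 36105 CPM in Chow. A mislabelled library, a mouse that did not respond to the diet and other causes cannot be told apart. The fold changes that use HFD Vehicle are therefore also given without it, and group means of HFD Vehicle include it.

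Sequence just upstream of the start site was read for the members from RefSeq (GRCm38.p6), which had an entry for 8 of the 9. The 250 upstream bases of 4 of them are shown because these genes span the range of responses to diet: Lep did not pass the test, Adipoq and Rbp4 fell, and Cfd fell most. Capitals mark a C/EBP-type motif (TTGCNNAA) and a TATA box (TATAAA), each searched on both strands and without overlap here.
Lep, chr6:29059971-29060220, plus strand: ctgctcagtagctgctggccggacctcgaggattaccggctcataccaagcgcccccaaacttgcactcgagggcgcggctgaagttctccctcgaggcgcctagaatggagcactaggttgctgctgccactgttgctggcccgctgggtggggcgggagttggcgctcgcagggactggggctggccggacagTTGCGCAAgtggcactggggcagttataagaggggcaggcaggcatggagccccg
Adipoq, chr16:23146286-23146535, plus strand: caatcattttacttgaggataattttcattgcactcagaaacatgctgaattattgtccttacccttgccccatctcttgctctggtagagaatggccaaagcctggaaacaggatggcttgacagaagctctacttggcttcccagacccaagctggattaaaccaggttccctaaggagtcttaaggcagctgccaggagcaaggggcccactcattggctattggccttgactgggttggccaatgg
Cfd, chr10:79890603-79890852, plus strand: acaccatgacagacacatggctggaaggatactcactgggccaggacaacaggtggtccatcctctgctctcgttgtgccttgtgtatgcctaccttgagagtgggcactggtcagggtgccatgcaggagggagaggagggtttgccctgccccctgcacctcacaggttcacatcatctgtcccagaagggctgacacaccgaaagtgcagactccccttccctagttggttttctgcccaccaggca
Rbp4, chr19:38124812-38125061, minus strand, first of its 2 start sites: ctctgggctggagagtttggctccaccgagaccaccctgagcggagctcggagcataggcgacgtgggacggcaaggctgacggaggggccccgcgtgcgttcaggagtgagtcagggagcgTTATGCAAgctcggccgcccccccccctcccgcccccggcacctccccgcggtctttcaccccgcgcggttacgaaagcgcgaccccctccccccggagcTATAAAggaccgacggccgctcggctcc

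The C/EBP-type match lies 55 to 48 bases upstream of the Lep start, where it reads the same on both strands. For the first Rbp4 start it lies 128 to 121 bases upstream, on the strand opposite to the printed one. This Rbp4 start is first by coordinate only. The gene is on the minus strand, so the second start lies upstream of the first, and its window held neither this motif nor TATAAA. The C/EBP-type motif occurred in 9.56% of 32851 RefSeq promoter windows of this length. TATAAA, in 12.4% of the windows, was found for Rbp4 and for Agt, where it lies 30 to 25 bases upstream. Adipoq held CCAAT or its reverse complement at 3 places, the nearest 7 to 3 bases upstream, a match that 33.8% of the windows had. GGGCGG, in 32.7% of the windows, was matched for Lep, Rbp4, Nampt and Apln. The Cfd and Retn windows held none of the 7 motifs searched, and no window of a member held CACGTG, the PPAR direct repeat or the glucocorticoid receptor palindrome.

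The high-fat diet was compared with chow first. Adipokine genes split by diet: the levels of Adipoq, Retn, Cfd, Rbp4, Agt and Apln were lower in HFD than in Chow, from 3.32-fold for Apln to 66.8-fold for Cfd, while Lep, Nampt and Rarres2 did not pass the test. In edgeR's quasi-likelihood test with Benjamini-Hochberg adjustment over 16216 genes, 6 of 9 members fell, 0 rose and 3 did not pass at an adjusted p of 0.05. Calls were common in this comparison, with 59.8% of all genes called, 30% lower and 29.8% higher. The median log2 fold change was -2.19 over the 9 members and -0.03 over all genes. The libraries of the groups did not overlap for 7 of the 9 members, against 68.6% of all genes. In bulk tissue, fewer cells of a type and less RNA per cell cannot be told apart, and this holds for each fall below.

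**Figure D1:**
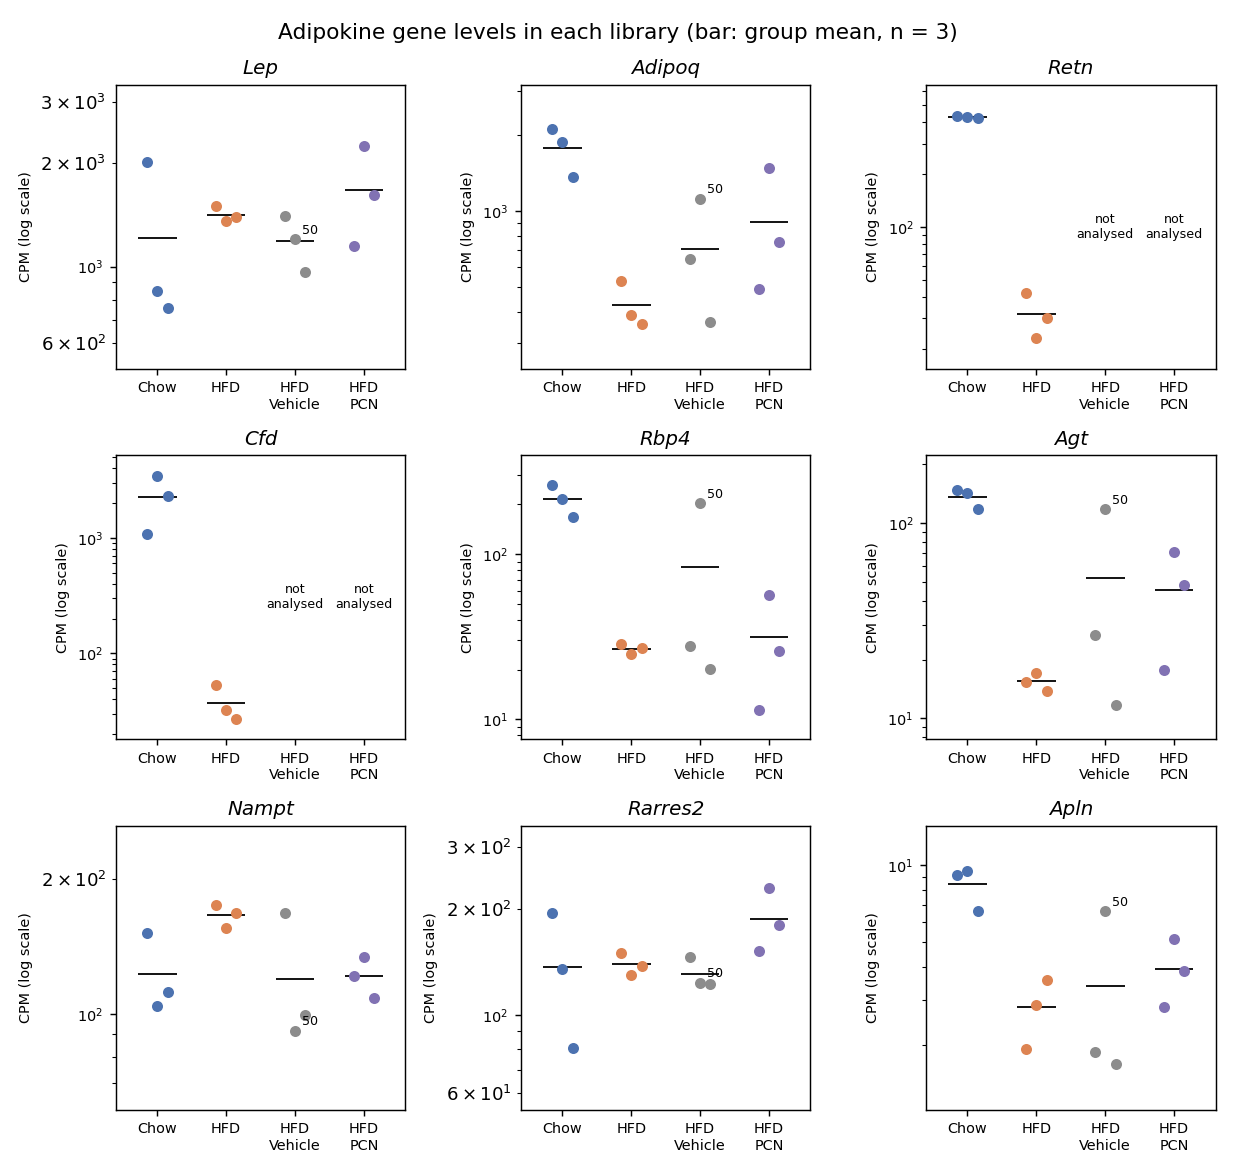
Level of each adipokine gene (CPM, log axis with its own range in each panel) in every library of the 4 groups, with a bar at the group mean of 3 libraries and the library HFD Vehicle 50 marked. Retn, Cfd, Rbp4 and Agt form separate bands in Chow and HFD, while the Lep levels of the 2 groups overlap.

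Lep (ENSMUSG00000059201, chr6:29060220-29073877, plus strand, GRCm38) was at 2015, 847 and 758 CPM in Chow 8, 17 and 19, and at 1497, 1354 and 1389 CPM in HFD 4, 30 and 38. The HFD libraries lay close together, and the Chow libraries spread around them, with Chow 8 above all 3 and the other Chow libraries below. The means were 1414 ± 74.7 CPM in HFD and 1207 ± 702 CPM in Chow (SD, n = 3 each). The log2 fold change was 0.12 (SE 0.34, adjusted p = 0.775, edgeR), so a difference was not detected. Chow 8 decided this result: without it the log2 fold change was 0.69 with an adjusted p of 0.00180, whereas it was -0.06 without Chow 17 and -0.10 without Chow 19. Within its group Chow 8 also had the highest Adipoq, Retn, Rbp4, Agt, Nampt and Rarres2 levels and the lowest Cfd level. Mitochondrial ribosomal RNA made up 6.05%, 9.66% and 28.7% of the counts in Chow 8, 17 and 19, and its part in these levels was not tested.

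Adipoq (ENSMUSG00000022878, chr16:23146536-23158028, plus strand), whose hormone circulates at high levels, was at 2107, 1873 and 1368 CPM in the Chow libraries in the same order. In the HFD libraries it was at 530, 390 and 357 CPM. All HFD libraries were below all Chow libraries. Its level fell by 2.19 on the log2 scale (SE 0.23, adjusted p = 1.01e-04, edgeR), a 4.55-fold lower level.

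Retn and Cfd gave the largest falls. Retn (ENSMUSG00000012705, chr8:3655770-3660110, plus strand) was the steadiest member in Chow, at 434, 425 and 422 CPM, and was at 41.8, 23.2 and 30.1 CPM in HFD. It fell by 3.88 on the log2 scale (SE 0.22, adjusted p = 9.51e-06, edgeR), or 14.7-fold. Cfd (ENSMUSG00000061780, chr10:79890853-79892655, plus strand), a serine protease that cleaves factor B in the alternative complement pathway, was at 1070, 3455 and 2294 CPM in Chow and at 53.1, 32.1 and 26.9 CPM in HFD. Chow libraries differed 3.23-fold among themselves, against the 66.8-fold difference between the groups. Cfd fell by 6.06 on the log2 scale (SE 0.53, adjusted p = 4.62e-05, edgeR), and only 3 of the 16216 genes tested had a larger fall.

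Rbp4 and Agt, the members shared with liver, fell by similar amounts. Rbp4 (ENSMUSG00000024990, chr19:38116620-38125321, minus strand), whose protein carries retinol, was at 264, 216 and 168 CPM in Chow and at 28.4, 24.7 and 27.0 CPM in HFD. It fell by 3.14 on the log2 scale (SE 0.17, adjusted p = 7.60e-06, edgeR). Agt (ENSMUSG00000031980, chr8:124556534-124569706, minus strand), the precursor of the angiotensin peptides, was at 147, 142 and 117 CPM in Chow and at 15.4, 17.2 and 13.8 CPM in HFD. It fell by 3.25 on the log2 scale (SE 0.14, adjusted p = 5.07e-06, edgeR), the smallest p of the 9. In Chow both genes were above the 12.7 CPM that the 8 hepatocyte genes together reached at most in a library of that group. In HFD that sum was 3.77 CPM at its lowest, 7.44 CPM at its median and 17.3 CPM at its highest, and only the highest was above the Agt levels. The part of hepatocyte RNA in these values was not tested.

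Apln (ENSMUSG00000037010, chrX:48025146-48034853, minus strand), which encodes the apelin peptides that act on blood vessels and heart, was the member with the lowest level. It was at 9.14, 9.44 and 6.65 CPM in Chow and at 1.93, 2.87 and 3.59 CPM in HFD, resting on 52 to 125 counts per library. It fell by 1.73 on the log2 scale (SE 0.27, adjusted p = 7.53e-04, edgeR). Endothelial genes moved the same way: 10 of 10 fell, against 30% of all genes. The summed level of these 10 was 1643 to 1720 CPM in Chow and 582 to 602 CPM in HFD. The part of endothelial cells in the Apln result was not tested.

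Nampt and Rarres2 did not pass the test. Nampt (ENSMUSG00000020572, chr12:32819545-32853349, plus strand), the enzyme that salvages nicotinamide for NAD synthesis, was at 151, 104 and 112 CPM in Chow and at 175, 155 and 168 CPM in HFD. The HFD libraries were all higher, but the log2 fold change of 0.32 (SE 0.14) had an adjusted p of 0.0791 in edgeR. It passed without Chow 8 (0.49, adjusted p = 0.00293) and with no filter on low counts (0.40, adjusted p = 0.0399). Rarres2 (ENSMUSG00000009281, chr6:48569696-48572789, minus strand), the precursor of a chemoattractant of immune cells, was at 195, 135 and 80.8 CPM in Chow and at 150, 130 and 138 CPM in HFD. The Chow libraries lay on both sides of the HFD libraries, as they did for Lep, and the log2 fold change was -0.09 (SE 0.26, adjusted p = 0.771, edgeR), or 0.23 without Chow 8. Rarres2 is uncertain, since 33.6% of its exon bases are overlapped by Lrrc61 on the other strand and no source used here gives the strand setting of the counting. Lrrc61 itself was at 5.00 to 9.70 CPM in all libraries.

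Signs of other cell types and of RNA makeup moved with the diet. Adipocyte marker genes fell in 19 of 22 cases, against 30% of all genes, with a median log2 fold change of -1.74. Their summed level was 36105 to 38335 CPM in Chow and 14845 to 16708 CPM in HFD. Of 13 macrophage genes 11 rose, against 29.8% of all genes, with sums of 5979 to 8564 CPM in Chow and 16783 to 18299 CPM in HFD. Lpl, which both adipocytes and macrophages make, is counted in both lists, so neither sum is the level of 1 cell type alone. Adgre1 by itself was at 26.8 to 74.6 CPM in Chow and at 931 to 981 CPM in HFD. Of 9 fibroblast and progenitor genes 8 rose, with a median log2 fold change of 1.09 and sums of 1855 to 3451 CPM in Chow and 9484 to 10856 CPM in HFD. The part of these cell types in the adipokine values was not tested. Mitochondrial ribosomal RNA made up 6.05% to 28.7% of the counts in Chow and 1.40% to 1.79% in HFD, and cannot be told apart from diet. With all mitochondrially encoded genes left out, all 6 falls still passed, with log2 fold changes between -1.72 for Apln and -6.06 for Cfd. The median shift was 0.0059 on the log2 scale. Leaving these genes out changes the scaling alone and cannot speak to other differences in RNA makeup between the libraries.

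**Figure D2:**
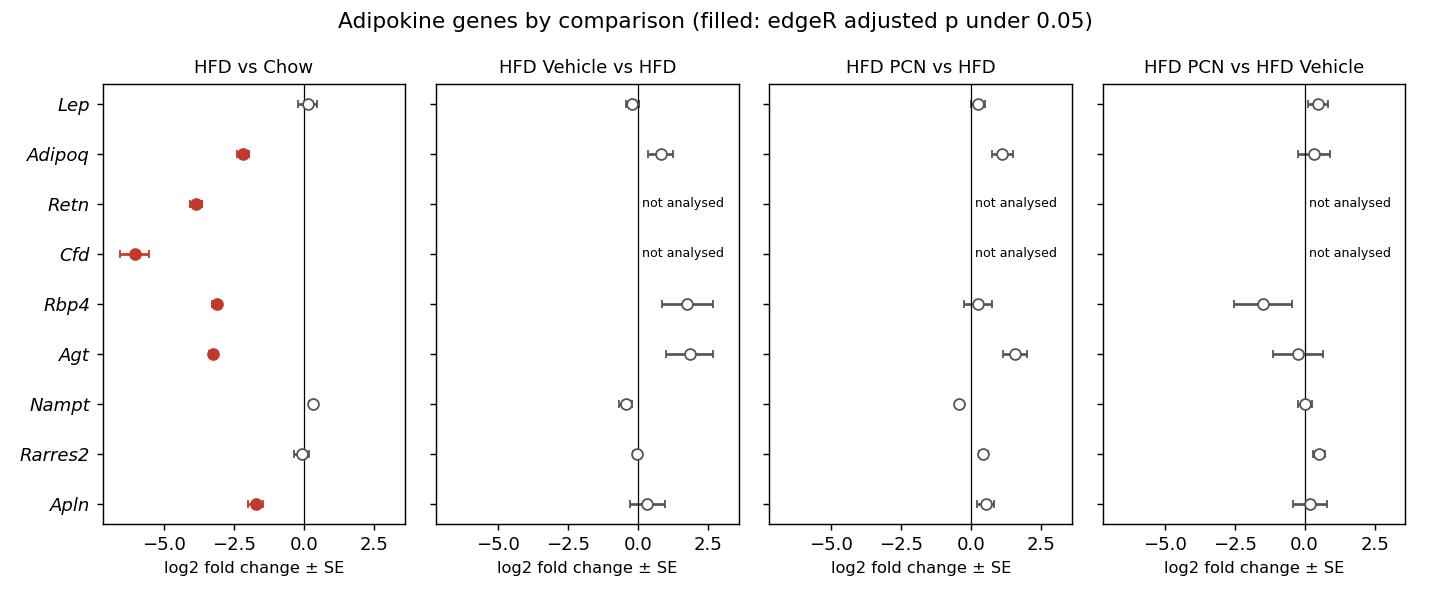
Log2 fold change of each adipokine gene with its standard error from edgeR in the 4 comparisons, filled where the adjusted p was under 0.05. Filled points occur in the diet comparison alone, at Adipoq, Retn, Cfd, Rbp4, Agt and Apln.

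Levels per kb of exon, the only scale on which genes can be ranked against each other, gave a different order in the 2 diets. In Chow the order was Cfd (2466 ± 1294 CPM per kb), Adipoq (1291 ± 273), Lep (360 ± 209), Retn (270 ± 4.02), Rbp4 (161 ± 35.8), Agt (71.6 ± 8.49), Rarres2 (51.6 ± 21.5), Nampt (24.3 ± 4.99) and Apln (2.67 ± 0.486), each as mean ± SD over 3 libraries. Neighbours whose libraries overlapped were Cfd and Adipoq, Lep and Retn, and Agt and Rarres2. In HFD the order was Lep (421 ± 22.3 CPM per kb), Adipoq (308 ± 66.5), Rarres2 (52.4 ± 3.75), Cfd (40.5 ± 15.02), Nampt (32.9 ± 1.98), Retn (20.1 ± 5.94), Rbp4 (19.9 ± 1.40), Agt (8.17 ± 0.885) and Apln (0.889 ± 0.264). Neighbours that overlapped were Rarres2 and Cfd, Cfd and Nampt, and Retn and Rbp4. Lep stood below Cfd and Adipoq in Chow and above all the others in HFD, although its own level did not pass the test. Among 30315 genes ranked per kb, Cfd stood at place 14 in Chow and 1003 in HFD, Adipoq at 19 and 92, Retn at 74 and 2229, and Lep at 59 and 68.

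Taking the 9 members as 100% on the per kb scale, Cfd made up on average 50.5% of their sum in Chow and 4.39% in HFD. Over the Chow libraries its share ranged from 29.4% to 63.1%, and in Chow 8 Adipoq had the larger share, 38.7%. The mean share of Lep was 8.28% in Chow (4.25% to 15.2%) and 46.9% in HFD (43.1% to 49.6%), and that of Adipoq was 28.3% and 33.8%. The ratio of Lep to Adipoq per kb was 0.394, 0.186 and 0.228 in Chow 8, 17 and 19, and 1.16, 1.43 and 1.60 in HFD 4, 30 and 38. Leptin transcripts were therefore fewer than adiponectin transcripts in every Chow library and more numerous in every HFD library.

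**Figure D3:**
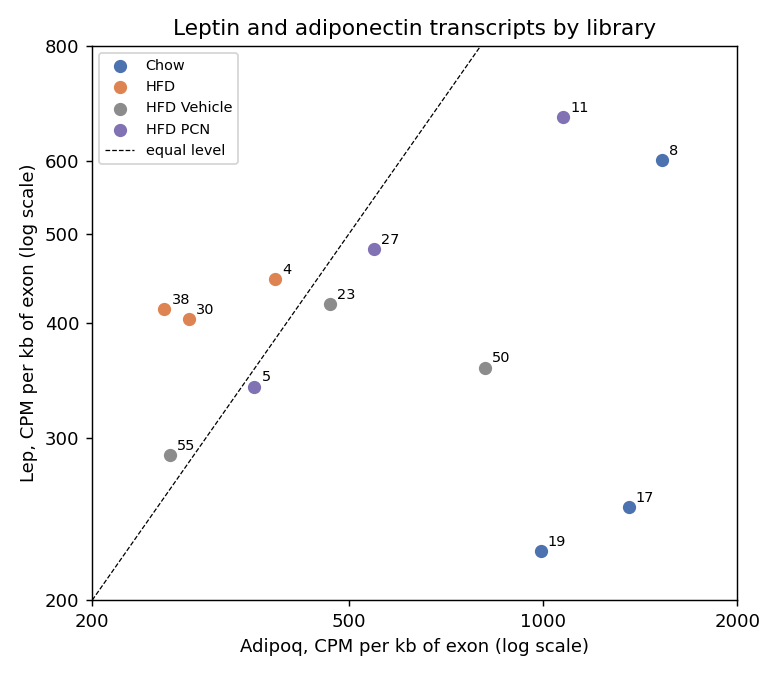
Lep against Adipoq in each of the 12 libraries, both in CPM per kb of exon on log axes, labelled by library number, with a dashed line where the levels are equal. The HFD libraries lie above the line at ratios of 1.16 to 1.60, the Chow libraries below it at 0.186 to 0.394, and HFD Vehicle 50 below it at 0.441.

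Because adipocyte genes as a group were lower in HFD, each member was also set against the mean log2(CPM + 1) of 19 adipocyte genes in the same library. That mean was 9.58 ± 0.03 in Chow and 8.05 ± 0.09 in HFD (SD, n = 3 each). On this relative scale the median of all 16216 genes was 1.62 higher in HFD than in Chow, and for 89.9% of them every HFD library was above every Chow library, against 1.78% for which every HFD library was below. Retn, Cfd, Rbp4 and Agt were below in every HFD library, with differences of -2.22, -4.26, -1.41 and -1.52. Adipoq overlapped between the groups, at 1.48, 1.26 and 0.85 in Chow and 0.90, 0.64 and 0.47 in HFD, a difference of -0.53 (exact two-sided permutation test, p = 0.2). This value depended on the reference. With Fabp4, a fatty acid carrier gene of the adipocyte list, as the only reference gene it was -1.22 without overlap (exact p = 0.1). With Plin1 alone it was -0.30 with overlap. The mean level of Fabp4 was 6885 CPM in Chow and 3811 CPM in HFD, and that of Plin1 was 1293 and 379 CPM. The part of other cell types in the Fabp4 level was not tested. Lep, Nampt and Rarres2 were higher in every HFD library, by 1.91, 1.99 and 1.64, close to the median of all genes. Apln differed by 0.22 with overlap. With 3 libraries against 3 the exact permutation test cannot go below p = 0.1, the value found for the 7 members without overlap.

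**Figure D4:**
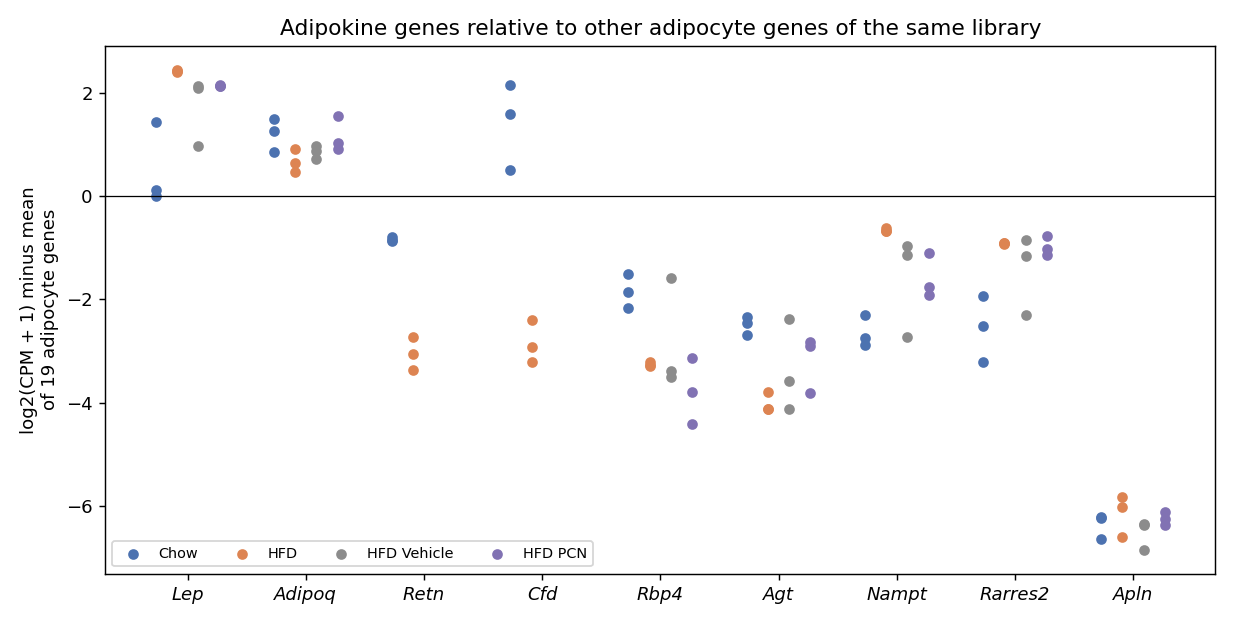
Level of each adipokine gene relative to adipocyte genes, as log2(CPM + 1) minus the mean of 19 adipocyte genes in the same library, by group. Lep lies at 2.40 to 2.44 in HFD and at 2.12 to 2.14 in HFD PCN, and Retn and Cfd are lower in HFD than in Chow.

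Relative to adipocyte genes, Lep was close to even within HFD and within HFD PCN. It was at 2.40, 2.44 and 2.42 in HFD, at 2.13, 2.14 and 2.12 in HFD PCN, and at 2.09 and 2.12 in HFD Vehicle 23 and 55. HFD Vehicle 50 was at 0.96, and the Chow libraries at 1.42, 0.12 and -0.0041. The adipocyte mean itself ranged from 8.03 to 8.99 over the HFD PCN libraries, a wider range than that of the relative Lep level. Between HFD PCN and HFD the relative Lep level differed by -0.29 without overlap (exact two-sided permutation test, p = 0.1, the smallest possible), which lay within the middle of all 16927 genes, whose quartiles were -0.69 and -0.27. For 24% of all genes every HFD PCN library was lower, and for 2.49% every one was higher, among them Adipoq, with a relative difference of 0.49. The Adipoq groups nearly touched, with HFD PCN 5 at 0.914 and HFD 4 at 0.904. With Plin1 alone the Adipoq groups overlapped, at a difference of 0.29, and with Fabp4 alone the difference was 0.84 without overlap. With Fabp4 as the only reference gene, the Lep difference was 0.063. The relative Nampt level was lower in every HFD PCN library than in every HFD library with each of the 3 references. The differences were -0.93 with the adipocyte list, -1.13 with Plin1 and -0.58 with Fabp4. The share over all genes was computed for the adipocyte list only. In HFD Vehicle against HFD the Nampt differences were -0.96 and -1.23 without overlap for the list and Plin1. With Fabp4 the difference there was -0.46 with overlap.

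Genes around the adipokines were followed in lists chosen by function. Over all genes in HFD against Chow, 29.8% rose and 30% fell. Of 15 receptor genes tested in this comparison, 7 rose, 4 fell and 4 did not pass, with a median log2 fold change of 0.21. The adiponectin receptors went separate ways: Cdh13, encoding T-cadherin that binds large adiponectin complexes, fell by 2.07 on the log2 scale (SE 0.12), Adipor2 fell by 1.58 (SE 0.14), and Adipor1 had a log2 fold change of 0.15 with an adjusted p of 0.248 in edgeR. The leptin receptor Lepr had a log2 fold change of 0.11 (adjusted p = 0.792, edgeR) and the apelin receptor Aplnr one of 0.21 (adjusted p = 0.305, edgeR). The chemerin receptor Cmklr1 fell by 1.87 on the log2 scale and the angiotensin receptor Agtr1a fell by 1.24.

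Receptors for complement fragments, which form downstream of adipsin, rose while Cfd fell. C3ar1 rose by 4.23 on the log2 scale, C5ar2 by 3.38 and C5ar1 by 2.83. C5ar1 was at 25.4, 14.3 and 15.5 CPM in Chow and at 144, 160 and 123 CPM in HFD. Stra6l, encoding a receptor for retinol binding protein, rose by 4.33. These receptors rose together with the macrophage genes above, and the part of macrophages in their levels was not tested.

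Among 27 processing and pathway partners 10 rose, 6 fell and 11 did not pass, with a median log2 fold change of 0.14. Over all genes 29.8% rose and 30% fell. Ptpn1, a phosphatase that dampens leptin and insulin signalling, rose by 1.34 on the log2 scale (SE 0.10), from 44.5, 43.1 and 44.6 CPM to 120, 114 and 130 CPM. Atp6ap2, the prorenin receptor, rose by 1.71. Of 15 transcription regulators of adipokine genes 11 fell, 1 rose and 3 did not pass. The 4 with the smallest p were Foxo1, Zfp423, Epas1 and Klf15, with log2 fold changes of -2.29, -1.79, -1.98 and -2.58. Pparg, the master regulator of fat cells, had a log2 fold change of -1.41, and Cebpa, a factor that binds C/EBP sites, was 1.99-fold lower, both past the test. Hif1a, a sensor of low oxygen, was the regulator that rose, by 0.51, and Pparg, Cebpa, Hif1a and the receptors outside the 4 smallest p were chosen after their values were seen.

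**Figure D5:**
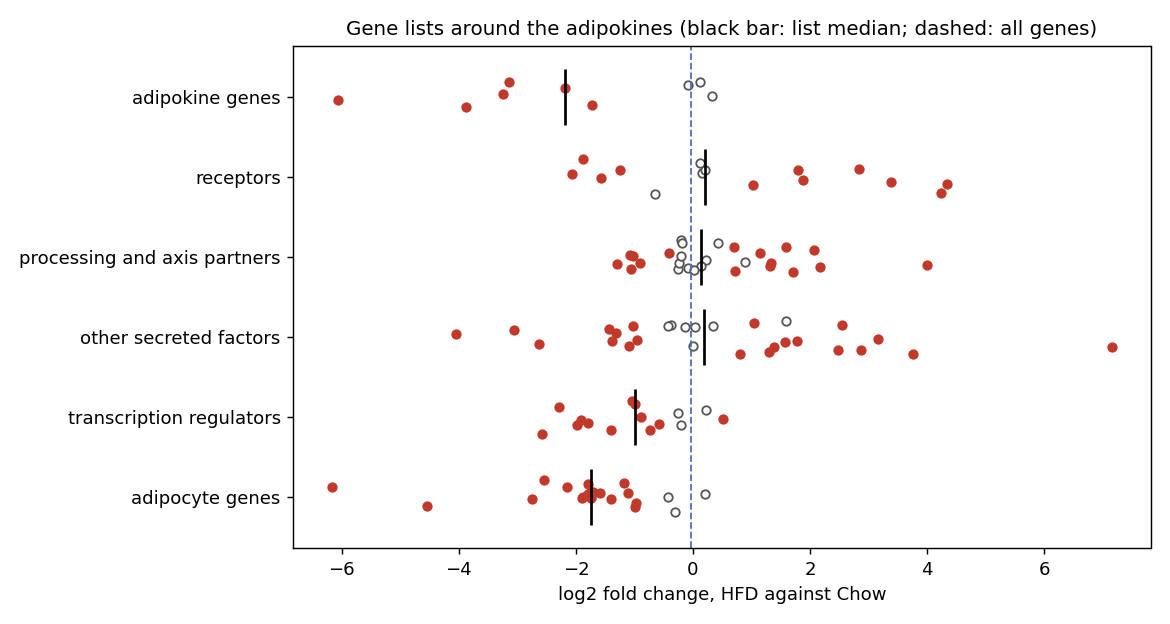
Log2 fold change in HFD against Chow for the adipokine genes and 5 related gene lists, 1 point per gene, filled where edgeR's adjusted p was under 0.05, with a black bar at each list's median and a dashed line at the median of all genes. Adipokine and adipocyte genes have medians of -2.19 and -1.74, and receptors spread from -2.07 to 4.33.

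PCN was compared with vehicle in the injected mice on the high-fat diet. No member passed: edgeR called 0 of 7 members and 0 of 16563 genes (0%) at an adjusted p of 0.05. At an unadjusted p under 0.05 it had 281 genes (1.7%) and none of the 7 members. DESeq2 called 1 gene and limma-voom 0, and the authors' deposited table has 2 genes (0.00657%) at its adjusted p, none of them a member. The HFD PCN and HFD Vehicle libraries did not overlap for 1 of the 7 members, Rarres2, and for 6.3% of all genes.

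Lep was at 1406, 1200 and 963 CPM in HFD Vehicle 23, 50 and 55, and at 1144, 2244 and 1614 CPM in HFD PCN 5, 11 and 27. Its highest level of all 12 libraries was in HFD PCN 11, and the groups overlapped. The log2 fold change was 0.47 (SE 0.35, adjusted p = 0.9999, edgeR), or 0.51 without HFD Vehicle 50. Over the 4 groups the mean Lep level was highest in HFD PCN (1668 ± 552 CPM), then HFD, Chow and HFD Vehicle (1190 ± 221 CPM), and no neighbours in that order differed beyond their spread.

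Adipoq was at 646, 1120 and 365 CPM in HFD Vehicle and at 493, 1483 and 755 CPM in HFD PCN. HFD PCN 11 lay within the Chow range, and the other 5 libraries lay below it, with HFD Vehicle 50 the nearest. The log2 fold change was 0.32 (SE 0.57), or 0.87 without HFD Vehicle 50 and -0.22 without HFD PCN 11, with an adjusted p of 0.800 or more in edgeR each time. By mean level the groups followed the order Chow, HFD PCN (910 ± 513 CPM), HFD Vehicle (710 ± 382 CPM) and HFD, and HFD PCN and HFD Vehicle overlapped.

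Rbp4 and Agt differed most within the injected groups. Rbp4 was at 27.95, 203 and 20.2 CPM in HFD Vehicle and at 11.3, 56.9 and 25.8 CPM in HFD PCN. HFD Vehicle 50 alone was within the Chow range, 10.1-fold above HFD Vehicle 55. The log2 fold change of Rbp4 was -1.48 (SE 1.03), and 0.39 without HFD Vehicle 50. Agt was at 26.7, 117 and 11.7 CPM in HFD Vehicle and at 17.6, 70.6 and 48.2 CPM in HFD PCN, with a log2 fold change of -0.24 (SE 0.90), and 1.25 without HFD Vehicle 50. The direction of both thus depended on this library, and neither passed with or without it (lowest adjusted p = 0.800, edgeR).

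Nampt was at 168, 91.7 and 99.3 CPM in HFD Vehicle and at 122, 134 and 108 CPM in HFD PCN, a log2 fold change of 0.01 (SE 0.26), or -0.12 without HFD Vehicle 50. Rarres2 was at 146, 124 and 123 CPM in HFD Vehicle and at 151, 229 and 180 CPM in HFD PCN. Every HFD PCN library was above every HFD Vehicle library. The log2 fold change of Rarres2 was 0.50 (SE 0.21, unadjusted p = 0.0534 and adjusted p = 0.9999, edgeR), and 0.49 without HFD Vehicle 50. Apln was at 1.87, 6.61 and 1.68 CPM in HFD Vehicle and at 2.81, 5.16 and 3.88 CPM in HFD PCN, with a log2 fold change of 0.20 (SE 0.61), or 1.15 without HFD Vehicle 50.

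Both injected groups were then set against the HFD mice. These comparisons share the HFD libraries and join raw counts from separate deposited tables, so that table and injection cannot be told apart from the group, and PCN not from the injections. In HFD Vehicle against HFD, edgeR called 0 of 7 members and 0 of 16781 genes (0%), with 1639 genes (9.77%) but none of the members at an unadjusted p under 0.05. DESeq2 called 91 genes and limma-voom 0. None of the 7 members was without overlap between the groups, against 28.4% of all genes. The log2 fold changes of Lep, Adipoq, Rbp4, Agt, Nampt, Rarres2 and Apln were -0.19, 0.82, 1.77, 1.86, -0.43, -0.04 and 0.34. Without HFD Vehicle 50 they were -0.25, 0.25, -0.14, 0.32, -0.31, -0.05 and -0.63, and edgeR called 172 genes and none of the 7.

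With HFD PCN set against HFD, edgeR called 732 of 16927 genes (4.32%), 2.97% higher and 1.35% lower, and 0 of the 7 members. At an unadjusted p under 0.05 there were 4 of the 7 members and 29.5% of all genes. Agt was at 17.6 to 70.6 CPM in HFD PCN and 13.8 to 17.2 CPM in HFD, without overlap, with a log2 fold change of 1.57 (SE 0.44, adjusted p = 0.0778, edgeR). Adipoq had a log2 fold change of 1.11 (SE 0.38, adjusted p = 0.113, edgeR), with HFD PCN 5 inside the HFD range. Nampt was lower in every HFD PCN library, with a log2 fold change of -0.44 (SE 0.11, adjusted p = 0.0601, edgeR). Rarres2 was higher in every HFD PCN library, with a log2 fold change of 0.44 (SE 0.16, adjusted p = 0.124, edgeR). Lep, Rbp4 and Apln had log2 fold changes of 0.25, 0.24 and 0.52. Groups did not overlap for Agt, Nampt and Rarres2, 3 of the 7 members, and for 37.5% of all genes.

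Calls among these 4 members depended on the method and on 1 library. DESeq2 called Agt (adjusted p = 0.00268), Nampt (0.00821) and Adipoq (0.0224), among 2385 genes. The limma-voom fit called 508 genes and none of the 7. With no filter on low counts edgeR called Agt (log2 fold change 1.56, adjusted p = 0.0419), among 1296 genes. Without HFD PCN 5, edgeR called Agt (log2 fold change 1.98, adjusted p = 9.21e-04), Adipoq (1.43, 0.0127), Rarres2 (0.60, 0.0124) and Nampt (-0.42, 0.0312), among 5167 genes. Without HFD PCN 11, Nampt alone of the 7 passed (-0.52, adjusted p = 0.0446, edgeR), among 670 genes, and the log2 fold change of Rbp4 was -0.52. The main fit called 732 genes, and the percentage of all genes tested was not computed for these alternatives. Cell markers differed within HFD PCN as well: the adipocyte sum ranged from 13137 to 23754 CPM and the macrophage sum from 8739 to 14046 CPM, against 14845 to 16708 and 16783 to 18299 CPM in HFD. Lpl is counted in both of these sums. Adgre1 by itself was at 294 to 772 CPM in HFD PCN and at 931 to 981 CPM in HFD. Of the 13 macrophage genes 11 had a negative log2 fold change, and 0 were called. Endothelial genes summed to 753 to 1262 CPM in HFD PCN and 582 to 602 CPM in HFD, with 3 of 10 called higher. Fibroblast and progenitor genes summed to 5039 to 7325 CPM and 9484 to 10856 CPM, with 2 of 9 called lower. Mesothelial genes summed to 65.7 to 128 CPM in HFD PCN and 7.48 to 34.3 CPM in HFD, with 2 of 10 called higher. Over all genes 2.97% were called higher and 1.35% lower. The part of these cell types in the values above was not tested.

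Receptor and partner genes around the adipokines also differed in HFD PCN against HFD. Over all genes 2.97% were called higher and 1.35% lower. Of 15 receptors 3 rose and 0 fell, with a median log2 fold change of -0.13. The 3 were Cdh13, Adipor2 and Agtr1a, which rose by 1.14, 0.86 and 0.84 on the log2 scale. Cdh13 was at 29.9, 28.8 and 33.0 CPM in HFD, at 50.5, 75.4 and 74.2 CPM in HFD PCN, and at 35.9, 115 and 41.2 CPM in HFD Vehicle. Adipor2 was at 339, 300 and 328 CPM in HFD, and at 461, 650 and 628 CPM in HFD PCN. All 3 receptors had fallen in HFD against Chow, a comparison that shares the HFD libraries. Of 27 partners 1 rose, Aldh1a1, an enzyme that makes retinoic acid, by 0.70 on the log2 scale. Zfp423 and Epas1, 2 of the 15 transcription regulators, rose by 1.36 and 1.60. None of these genes passed in HFD PCN against HFD Vehicle in edgeR, and the count of calls in HFD PCN against HFD fell to 0 when HFD 4 or HFD 38 was left out.

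Correlations between the 7 members in both tables were computed over the 12 libraries. These correlations of log2(CPM + 1) describe libraries whose diet, depth and cell makeup vary together. Adipoq and Agt ran together most closely (Pearson r = 0.962, n = 12), followed by Agt and Apln (0.921) and Rbp4 and Agt (0.919). Lep followed Rarres2 (r = 0.882, n = 12) and hardly Adipoq (0.0896). Without HFD Vehicle 50 these values were 0.975, 0.916, 0.909, 0.885 and 0.105 in the same order (n = 11). Among 9501 other genes with a mean of at least 10 CPM, those most like Lep included Gypc (r = 0.931), Psat1 (0.908), Mfsd7a (0.904) and Rab3d (0.8996). Most like Adipoq were Rgcc (0.988), Plaat3 (0.984), Sgcd (0.984), Tdrp (0.980) and Ano10 (0.979). Without HFD Vehicle 50 the genes named here had r of 0.899 to 0.967 with Lep and 0.981 to 0.989 with Adipoq (n = 11). Gypc was at 21.5, 13.7 and 11.3 CPM in Chow 8, 17 and 19, the order of Lep, and at 17.5 to 18.5 CPM in HFD. Rgcc was at 161 to 197 CPM in Chow, 46.0 to 54.3 CPM in HFD, and 65.5, 123 and 45.6 CPM in HFD Vehicle 23, 50 and 55, as with Adipoq highest of its group in HFD Vehicle 50.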

How the data were processed

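Gene counts of 12 RNA sequencing libraries were analysed, 3 in each of 4 groups taken from the sample labels. The authors deposited 2 tables of raw read counts per gene, with 6 libraries each. The tools named per the submitters' processing notes are HISAT2, HTSeq and DESeq2, with the GRCm38 (mm10) build. Their versions, strand setting and filters are not given here. The same deposited tables hold the authors' log2 fold changes and adjusted p-values, which are printed only where named. Of 32772 genes 28008 are in both tables, and no sample column was left unmatched.

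The quasi-likelihood F test in edgeR 4.0.16 (R 4.3.3) was applied to the deposited counts after TMM scaling and the default expression filter, each comparison fitted on its own 6 libraries and adjusted over all its genes by Benjamini-Hochberg at 0.05. On simulated data false calls in the diet comparison exceeded the nominal rate, and between the injected groups most 4-fold and nearly all 2-fold changes were missed, so 0 calls there do not show that levels were alike. CPM used TMM factors of 12 libraries over the shared genes, and exon lengths came from GENCODE (GRCm38). The adipokine genes, gene lists, motifs and tests were chosen with earlier results of these data known. Of each list the 4 passing genes with the smallest p are named, and for Lep and Adipoq the 5 most similar genes, except for a few that are not reported here. A gene is marked as uncertain where another gene overlaps over 10% of its exon bases. Alternatives were DESeq2 1.42.0, limma-voom (limma 3.58.1), other size factors and filters, all 12 libraries in 1 fit, leaving out mitochondrially encoded genes or each library, and Plin1 or Fabp4 as the reference.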

Additional observations from a re-analysis of the deposited data

How the results depend on the processing

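The 6 falls in HFD against Chow passed under each of the alternatives run for them, with log2 fold changes of -2.36 to -2.06 for Adipoq, -4.11 to -3.68 for Retn, -6.39 to -5.61 for Cfd, -3.26 to -2.98 for Rbp4, -3.32 to -3.16 for Agt and -1.91 to -1.50 for Apln. Retn and Cfd had no fit over 12 libraries. Leaving out 1 library in turn gave 7953 to 10889 called genes in this comparison. For Lep it moved the log2 fold change between -0.10 and 0.69 and for Rarres2 between -0.34 and 0.23.

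The injected groups were less stable. Between HFD PCN and HFD Vehicle, DESeq2 called 1 gene and the authors' deposited table lists 2 genes, against 0 in edgeR. In HFD Vehicle against HFD, DESeq2 called 91 genes, and leaving out 1 library 0 to 172. Between HFD PCN and HFD, edgeR called 732 genes, DESeq2 2385, edgeR with no filter 1296, and a fit of all 12 libraries 0, and leaving out 1 library gave 0 to 5167. The cause was not tested.

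Leaving out 1 library turned the sign of log2 fold changes that had not passed. In HFD PCN against HFD Vehicle the ranges were -0.22 to 0.87 for Adipoq, -0.74 to 1.25 for Agt, -0.16 to 1.15 for Apln, -0.13 to 0.32 for Nampt and -2.23 to 0.39 for Rbp4. In HFD Vehicle against HFD they were -0.63 to 0.67 for Apln, -0.10 to 0.016 for Rarres2 and -0.14 to 2.23 for Rbp4. Between HFD PCN and HFD they were -0.018 to 0.49 for Lep and -0.52 to 0.67 for Rbp4. With limma-voom the sign turned for Agt in HFD PCN against HFD Vehicle (0.29), Apln in HFD Vehicle against HFD (-0.033) and Rbp4 in HFD PCN against HFD (-0.10). Nampt in HFD PCN against HFD Vehicle was at -0.0028 with the size factors of DESeq2 and at -0.0050 with a filter of 1 CPM in 3 libraries.

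Relative to adipocyte genes, Fabp4 as the only reference turned the difference of Apln in HFD against Chow (-0.47), HFD Vehicle against HFD (0.12) and HFD PCN against HFD (0.26), of Lep (0.063) and Rarres2 (0.28) in HFD PCN against HFD, and of Nampt in HFD PCN against HFD Vehicle (-0.12). Plin1 as the only reference turned Adipoq in HFD Vehicle against HFD (-0.091). Without HFD Vehicle 50, a choice made after seeing the data, Nampt in HFD PCN against HFD Vehicle was at -0.53 and Rbp4 in HFD Vehicle against HFD at -0.20.

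No paired analysis was possible because each library has its own number in the labels and no number is shared between groups. With 3 libraries a group, the SE of 0.90 and 1.03 for Agt and Rbp4 between the injected groups limits what could be detected, and Apln rests on 31 to 125 counts per library.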

Other observations

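Other secreted factors of fat tissue, beyond the 9 adipokines, moved in both directions with diet. Of 28 tested in HFD against Chow, 12 rose, 9 fell and 7 did not pass in edgeR, with a median log2 fold change of 0.19. Over all genes 29.8% rose and 30% fell. Ccl2, a chemokine that draws monocytes, was at 2.19, 1.99 and 1.85 CPM in Chow and at 26.1, 34.0 and 29.9 CPM in HFD, and rose by 3.76 on the log2 scale. Metrnl, a secreted meteorin-like protein, rose by 3.17. Spp1, the gene of osteopontin, rose by 7.15, from 3 to 37 counts per Chow library, and is uncertain because 18.8% of its exon bases are overlapped by another gene. Vegfa, a growth factor of blood vessels, fell by 3.06, from 247, 364 and 355 CPM in Chow to 39.6, 48.3 and 38.4 CPM in HFD.

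In HFD PCN against HFD, 2.97% of all genes were called higher and 1.35% lower. Of the 28 secreted factors 6 rose, 1 fell and 21 did not pass in edgeR. The 4 with the smallest p were Sfrp5, a Wnt inhibitor, which rose by 1.79 on the log2 scale, Vegfa (1.60), C1qtnf1 (1.39, uncertain, with 20.5% of its exon bases overlapped) and Nrg4 (1.25), a ligand of the ErbB receptors. Sfrp5 was at 68.4, 62.8 and 59.2 CPM in HFD, at 145, 284 and 221 CPM in HFD PCN, and at 121, 225 and 141 CPM in HFD Vehicle. Both injected groups were thus above HFD in every library. None of the 28 passed in HFD PCN against HFD Vehicle. The calls in HFD PCN against HFD rest on the choice of method and library described above.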
